A study of Caenorhabditis elegans with 6 samples.

Results

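The RNA recovered with MEG-3::GFP was compared with the RNA recovered with GFP alone, by individual-nucleotide crosslinking and immunoprecipitation (iCLIP) from early Caenorhabditis elegans embryos. The comparison holds 4 of the 6 iCLIP libraries of the study, 2 with MEG-3::GFP and 2 with GFP, chosen by their labels. The other 2 libraries, with PGL-1::GFP, entered only the gene-wise fit. There they took part in the choice of genes tested, in the scaling and in the estimate of the spread between replicates. In the MEG-3::GFP worms the meg-3 gene carried GFP at its own locus, so that the protein was made from its own promoter. The control worms carried unc-119(ed3) and a transgene, Ppie1::GFP, in which the promoter of the germline gene pie-1 drove GFP alone. Embryos of mixed early stages were pooled from gravid adults. The embryos received 3 exposures of 400 mJ/cm2 of ultraviolet light. They gave the lysates from which GFP-bound RNA was precipitated and trimmed with micrococcal nuclease. The names of the 2 GFP libraries begin with other letters than those of the MEG-3::GFP libraries. Were this to mark a separate preparation, preparation and control cannot be told apart here.

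P granules are condensates of RNA and protein in the germ line of C. elegans that are inherited by the germline precursor cells, the P blastomeres, at each early division. MEG-3 is an intrinsically disordered, serine-rich protein that coats P granules in the embryo, binds RNA and is needed for their stability. Early embryos live on messenger RNAs (mRNAs) laid down by the mother, many of which are held untranslated by RNA-binding proteins. In iCLIP, ultraviolet light links a protein to the RNA that it touches, and each read marks RNA that came down with the tagged protein. GFP is not an RNA-binding protein, and the libraries with GFP alone give the background of the procedure.

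The MEG-3::GFP libraries held 225609 and 280007 reads on genes in replicates 1 and 2, and the GFP libraries 26531 and 14040. A gene without a read can still have up to 3 expected reads, a floor of 13.3 and 10.7 reads per 1000000 counted reads (CPM) with MEG-3::GFP and of 113 and 214 CPM with GFP. Floors and intervals cover counting error only. GFP replicate 2 stood apart from the other 3 libraries. In it, 83.5% of reads fell on protein-coding genes against 94.6% to 98.4% in the others, 14.9% of protein-coding reads fell on chromosome X against 5.46% to 5.83%, and 19.2% fell on genes spanning more than 10000 bp against 9.59% to 10.8%. The 12 maternal marker genes all had reads and took 4.27% and 3.95% of reads with MEG-3::GFP, 2.60% in GFP replicate 1 and 0.363% in GFP replicate 2. Of the markers of other tissues, none of 8 for intestine and none of 36 for sperm had a read in the 4 libraries. The 4 neuron markers took 0.0984% and 0.0182% of reads with MEG-3::GFP and 0.0792% and 0.057% with GFP, and the 4 hypodermis markers 0.0213% and 0.00179% against 0% and 0.356%. The 5 body wall muscle markers took at most 0.0107% of reads with MEG-3::GFP, and 0.0528% and 0.207% with GFP. The part of these differences between libraries in the results below was not tested, so that values are given library by library, and the main ratios also without GFP replicate 2.

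The transcript of the tagged gene itself was among those recovered most. The meg-3 gene (WBGene00001569, chromosome X, 1986469 to 1989607 in the WBcel235 assembly) had 1986 and 635 reads in MEG-3::GFP replicates 1 and 2, and 8 and 0 reads in the GFP libraries. The libraries did not overlap, at 8803 and 2268 CPM against 302 and 0 CPM. The fitted log2 fold change was 5.40 ± 2.05 (SE, n = 2 libraries a group, edgeR's quasi-likelihood test, unadjusted p = 0.00844, adjusted p = 0.999). The transcript of pie-1, whose promoter drives the control transgene, had 1 and 89 reads with MEG-3::GFP and 13 and 0 reads with GFP, with overlapping CPM values.

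No gene passed an adjusted p of 0.05 in either direction among 2033 tested (edgeR's quasi-likelihood test over all 6 libraries, Benjamini-Hochberg adjustment, lowest adjusted p = 0.924). Without adjustment, 17 genes (0.836% of those tested) had more reads in MEG-3::GFP and 46 (2.26%) had fewer at a p under 0.05. The floors of the GFP libraries lie above those of the MEG-3::GFP libraries. A rise can thus be measured over a narrower range than a fall, and their counts are not on equal terms. DESeq2 on the same genes called 0 higher and 44 lower (2.16%) after adjustment, and a fit of the 4 libraries alone called 0 higher and 2 lower among 2422 genes (0.0826%). Of the 44, 24 were among the 1965 protein-coding genes tested, and 10 among the 22 small nucleolar RNA (snoRNA) genes tested. No read in either MEG-3::GFP library was found for 19 of the 44. With 2 libraries against 2, the smallest p that an exact two-sided permutation test can give is 0.333. What follows is therefore mainly a description of where the libraries did and did not overlap, read against all genes tested. In it a library without a read counts as 0 CPM, although its floor is higher. In 28.6% of the tested genes (582) the CPM was higher in both MEG-3::GFP libraries than in both GFP libraries, and in 10.0% (204) it was lower in both. The median log2 fold change of all tested genes was 0.73 and not 0, and fold changes are to be read relative to it. With library sizes in place of the TMM scaling it was 0.25, with DESeq2 0.21, and with the 4 libraries alone 0.37. The median was 0.71 when the 125 genes without a read in 1 of the groups were set at the bound that 3 reads over that group allow.

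The genes with the highest CPM in MEG-3::GFP included several germline mRNAs laid down by the mother. puf-5, which encodes a PUF-domain repressor of mRNAs in late oocytes (chromosome II, 8575541 to 8577787), had 2865 and 2123 reads with MEG-3::GFP and 64 and 3 with GFP, or 12699 and 7582 CPM against 2412 and 214 CPM. cgh-1, which encodes a DEAD-box helicase of repressed germline mRNPs, had 2422 and 2568 reads against 67 and 7. grif-1 had 1640 and 1580 reads against 18 and 0. cbd-1, which encodes a chitin-binding protein of the eggshell (chromosome IV, 11372991 to 11377627), had 1255 and 2041 reads against 12 and 0. In each of these 4 genes the MEG-3::GFP libraries lay above both GFP libraries. Their log2 fold changes were 3.26 ± 1.63 for puf-5, 3.04 ± 1.58 for cgh-1, 4.53 ± 1.85 for grif-1 and 5.10 ± 1.99 for cbd-1 (SE), and every one had an adjusted p of 0.999.

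The remaining 5 of the 10 genes with the most reads also did not overlap between the groups. uba-1, the ubiquitin-activating enzyme, stood at 4428 and 4778 CPM with MEG-3::GFP against 1168 and 285 CPM with GFP. sec-61.A, a subunit of the protein-conducting channel of the endoplasmic reticulum, was the closest to the control at 4455 and 4628 CPM against 3166 and 997 CPM. car-1, an Sm-like protein of germline mRNPs, and ptc-1, a Patched-family membrane protein, had means of 4136 and 3902 CPM against 1045 and 561 CPM. lfor-1, annotated as a non-coding RNA within the span of the receptor gene sre-13, had 997 and 889 reads with MEG-3::GFP and 0 and 3 reads with GFP. Over the pooled reads of each group this was a 50.4-fold difference (95% counting interval 17.2 to 245). How reads on overlapping genes were assigned is not given in the sources used here.

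The list of most recovered genes was different with GFP. Of the 10 genes with the highest mean CPM there, 3 were snoRNA genes, and 2 were listed under mitochondrial identifiers (MTCE.7 and MTCE.33). The spliced leader RNA gene sls-1.12 led it, with 236 and 353 reads in the GFP libraries and 1128 and 551 in the much deeper MEG-3::GFP libraries, or 8895 and 25142 CPM against 5000 and 1968 CPM. Several near-identical copies of this gene exist, so that its count depends on how such reads were assigned. The only protein-coding genes among the 10 were mex-5, a maternal zinc-finger gene, with 4259 and 1852 CPM in GFP and 722 and 2986 CPM in MEG-3::GFP, and unc-70, the β-spectrin gene. unc-70 had 76 reads in GFP replicate 2 and 0 in GFP replicate 1, and both mex-5 and unc-70 overlapped between groups.

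**Figure D1:**
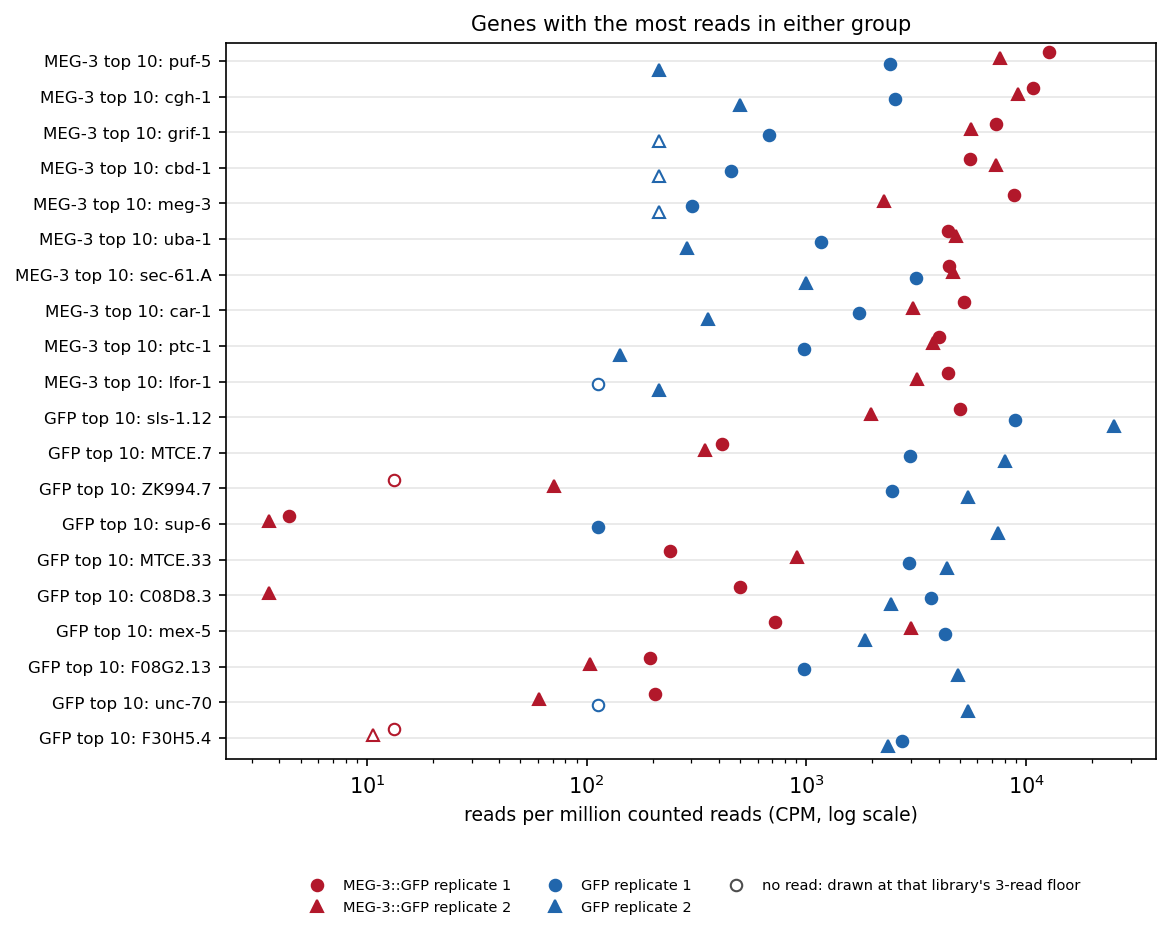
CPM on a log axis of the 10 genes with the highest mean CPM in MEG-3::GFP and the 10 in GFP, with 1 point for each of the 4 libraries and open symbols at the 3-read floor where a library had no read. All 10 MEG-3::GFP genes lay to the right of both GFP libraries, while mex-5 and unc-70 of the GFP genes overlapped.

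Among genes with an unadjusted p under 0.05 and no overlap, the 10 with the largest fitted increase had no read in either GFP library. They passed the expression filter through other libraries. Only a lower bound on the fold change can therefore be given, set against 3 reads over the group. Of these genes sip-1, at 124 CPM in MEG-3::GFP replicate 1, lay below the 214 CPM floor of GFP replicate 2. Its lack of overlap rests on counting no read as 0 CPM. C18D11.3 had 252 and 210 reads with MEG-3::GFP, 12.6-fold higher at the bound (interval limit 10.0). cct-4, a subunit of the cytosolic chaperonin, had 244 and 145 reads, 10.8-fold higher at the bound (limit 8.42). vsra-1, an Argonaute, had 248 and 130 reads, 10.6-fold higher at the bound (limit 8.18). The others were F26E4.4, the calnexin gene cnx-1, R09F10.8, the embryonic small heat shock protein gene sip-1, the ESCRT gene tsg-101, abhd-12 and edg-1. Their bounds ran from 6.95-fold to 9.89-fold, and their interval limits from 5.85-fold to 7.57-fold. Of the 10 with the largest fitted decrease, 9 had no read with MEG-3::GFP. The snoRNA gene F30H5.4 had 72 and 33 reads with GFP, 427-fold higher than with MEG-3::GFP at the bound (interval limit 349). col-74, a cuticle collagen gene, had 6 and 30 reads with GFP, 199-fold higher at the bound (limit 115). The small nuclear RNA (snRNA) gene sup-6 had 1 and 1 reads with MEG-3::GFP and 3 and 105 with GFP, so that GFP replicate 2 supplied nearly all of its reads. The remaining genes were ctsa-2, F59C6.15, the tRNA gene C16B8.t2, the SOX-family gene egl-13, srpr-1.2, C51F7.3 and the collagen gene dpy-14. The bounds of those 7 ran from 78.4-fold to 157-fold, and their interval limits from 41.3-fold to 149-fold.

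To ask which functions took more of the reads with MEG-3::GFP, 45 lists of genes were counted, of which 43 had a read in the 4 libraries. Members of a list are named in the order of their mean CPM over the 4 libraries, and the most read gene is the one with the highest mean CPM. The share of all counted reads was larger in both MEG-3::GFP libraries than in both GFP libraries for 13 lists and smaller for 11, while 19 overlapped. In 6 of the 13 and 8 of the 11 the 95% Wilson intervals of the nearest libraries of the groups were also apart. Without GFP replicate 2 there were 18 larger and 21 smaller, and without GFP replicate 1 there were 23 and 17. With reads on protein-coding genes as the denominator, which takes out the non-coding classes, 11 of 33 lists were larger and 3 smaller. Counts of members below are to be read against all genes tested. Of those, 28.6% had higher CPM in both MEG-3::GFP libraries and 10.0% lower.

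By the ratio of the mean shares of the 4 libraries, the eggshell and oocyte surface genes came first among the 13 larger lists, although without GFP replicate 1 the Nanos and PUF lists had higher ratios. They encode proteins of the vitelline layer and eggshell and of the oocyte membrane, and took 1.54% and 1.52% of reads with MEG-3::GFP, and 0.388% and 0.0855% with GFP. The MEG-3::GFP mean was 6.45 times the GFP mean, 3.94 times without GFP replicate 2 and 17.9 times without GFP replicate 1, and the nearest bounds were 1.48% and 0.471%. Of the 19 genes on the list 16 had a read, 9 were tested, 7 of these had higher CPM in both MEG-3::GFP libraries and none lower, and the median log2 fold change was 3.50 against 0.73 for all genes. Next to cbd-1, the most read members were egg-6 with 745 and 726 reads against 39 and 1, egg-3, a scaffold of the egg-to-embryo transition, with 272 and 231 against 21 and 2, and the eggshell proteoglycan gene cpg-2 with 336 and 296 against 7 and 0. With cbd-1 left out the log2 ratio of the mean shares was 2.05 in place of 2.69.

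The genes for P granule scaffolds and helicases took 1.51% and 0.791% of reads with MEG-3::GFP, and 0.339% and 0.0997% with GFP, a ratio of the means of 5.25, or 3.39 without GFP replicate 2 and 11.5 without GFP replicate 1. meg-3 itself supplied much of this, and without it the log2 ratio was 1.55 in place of 2.39. All 14 genes had a read and 8 were tested, 5 of them with higher CPM in both MEG-3::GFP libraries and none lower, with a median of 3.41, or 2.30 at the bounds. deps-1, a P granule component, had 552 and 589 reads with MEG-3::GFP and 10 and 1 with GFP. gtbp-1, the G3BP homolog, had 556 and 436 against 14 and 0. meg-1, another of the MEG genes, had 5 and 164 reads against 14 and 11, and its CPM values overlapped.

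The RNA regulators that repress or mark maternal mRNAs were divided. The PUF family, whose proteins bind the 3′ untranslated regions of their targets, took 1.58% and 1.20% of reads with MEG-3::GFP, and 0.520% and 0.0712% with GFP. Its ratio was 4.70, or 2.67 without GFP replicate 2 and 19.5 without GFP replicate 1. After puf-5, the most read members were puf-3 with 301 and 396 reads against 17 and 0, puf-6 with 153 and 262 against 9 and 1, and puf-7 with 201 and 238 against 2 and 0. Of 7 members tested 4 had higher CPM in both libraries and 1 lower, against 28.6% and 10.0% of all genes tested. Their median was 2.28. Without puf-5 the log2 ratio of the family was 1.20 in place of 2.23.

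The mRNP and repressor complex genes, with cgh-1, car-1, the 4E-binding protein gene ifet-1 and the CCR4-NOT scaffold gene let-711 as the most read members, took 2.99% and 2.45% against 1.49% and 0.413%. The ratio was 2.86, or 1.82 without GFP replicate 2 and 6.59 without GFP replicate 1. Of 13 tested genes, 6 had higher CPM in both libraries and 1 lower, against 28.6% and 10.0% of all genes tested. let-711 had 759 and 648 reads with MEG-3::GFP and 16 and 0 with GFP, while ifet-1, with 293 and 473 against 95 and 1, overlapped. The 3 Nanos genes, of which nos-1 and nos-2 act redundantly in germ cell fate, took 0.236% and 0.124% against 0.106% and 0.00712%. Their intervals met, with nearest bounds of 0.112% and 0.152%, and the ratio was 3.19, or 1.70 without GFP replicate 2 and 25.3 without GFP replicate 1. nos-2 had 292 and 289 reads against 25 and 0, nos-3 had 148 and 32 against 1 and 0, and nos-1 had 92 and 26 against 2 and 1. Argonaute and small RNA pathway genes took 0.638% and 0.912% against 0.637% and 0.499%, and overlapped when reads on protein-coding genes were the denominator.

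Other maternal regulators took no larger share with MEG-3::GFP than in GFP replicate 1. The CCCH zinc-finger genes took 1.00% and 1.45% of reads with MEG-3::GFP, which lay between 1.47% in GFP replicate 1 and 0.278% in GFP replicate 2. Their members were unlike. pos-1, which encodes a regulator of posterior fate, had 512 and 675 reads against 123 and 2 and overlapped, as did mex-5, while the oocyte maturation genes oma-1, with 413 and 668 against 42 and 1, and oma-2, with 573 and 547 against 49 and 5, did not overlap. The germline KH, RRM and NHL regulators, led by spn-4, larp-1, mex-3 and gld-1, took 1.23% and 1.56% against 1.60% and 0.271%. The maternal cell-fate mRNAs, with pal-1, nos-2, zif-1 and mom-2 as the most read, took 0.598% and 0.519% against 0.901% and 0.0783%. Of these only nos-2, which is also on the Nanos list, did not overlap between the groups. The PAR polarity genes took 0.594% and 0.462% against 0.667% and 0.321%. In these 4 lists the sign of the log2 ratio changed with the control library. For the CCCH genes it was 0.49 with all libraries, -0.26 without GFP replicate 2 and 2.14 without GFP replicate 1, and for the maternal cell-fate mRNAs it was 0.19, -0.69 and 2.83.

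**Figure D2:**
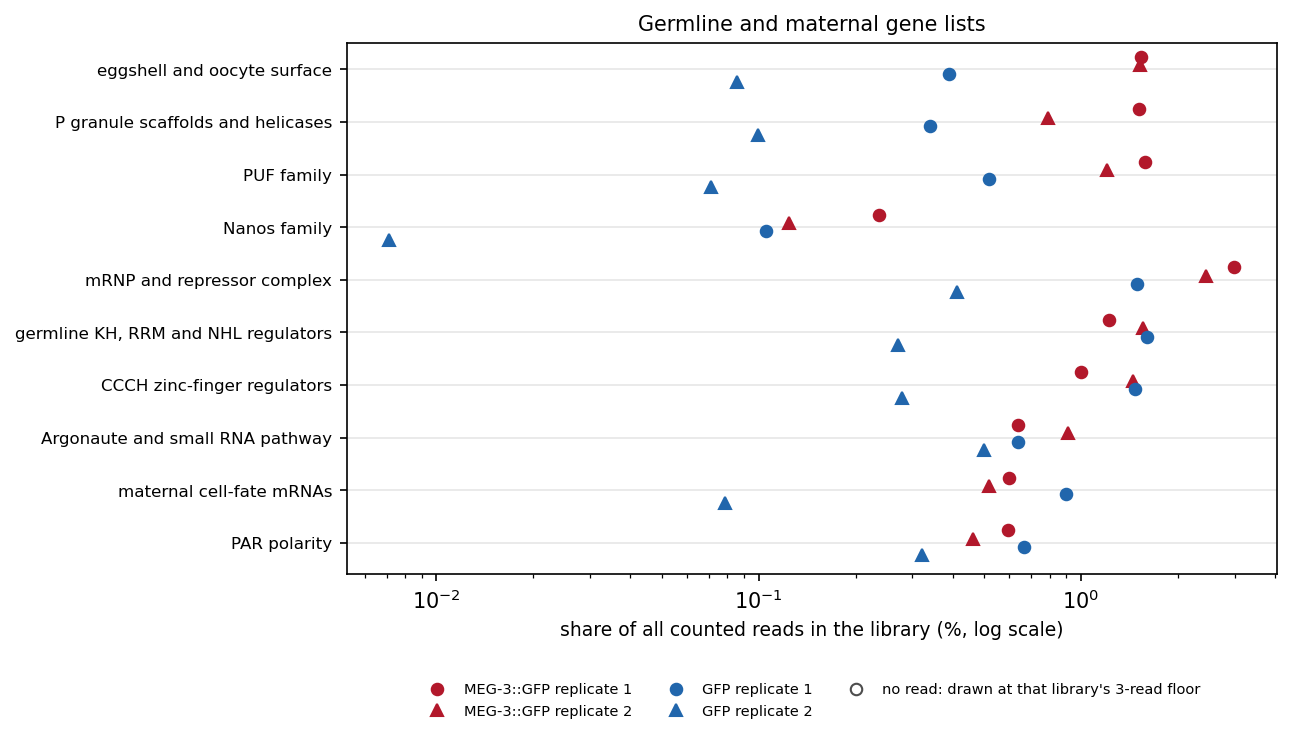
Share of all counted reads (%, log axis) on each germline or maternal gene list, with 1 point for each of the 4 libraries. The eggshell, P granule, PUF, Nanos and mRNP lists lay to the right in both MEG-3::GFP libraries, and the CCCH, KH, RRM and NHL, cell-fate and PAR lists fell between the 2 GFP libraries.

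Among genes that all cells use, chaperones and the ubiquitin pathway had the larger share with MEG-3::GFP. Chaperone genes took 1.92% and 1.60% of reads against 1.05% and 0.798%, a ratio of 1.91, or 1.68 without GFP replicate 2, and the nearest bounds were 1.55% and 1.18%. Of 24 tested, 10 had higher CPM in both MEG-3::GFP libraries and 3 lower, against 28.6% and 10.0% of all genes tested. The most read were hsp-1 with 385 and 495 reads against 7 and 19, hsp-90 with 398 and 347 against 27 and 11, the mitochondrial chaperone gene hsp-6 with 358 and 260 against 36 and 0, and dnj-5 with 277 and 349 against 29 and 2. hsp-6 overlapped between groups and the other 3 did not. The ubiquitin pathway genes took 1.12% and 1.10% against 0.667% and 0.363%, a ratio of 2.16, or 1.67 without GFP replicate 2. Without uba-1 their log2 ratio was 0.56 in place of 1.11. ubq-1, polyubiquitin, had 443 and 645 reads against 0 and 24.

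Smaller gaps, whose intervals met, were found for aminoacyl-tRNA synthetases at 0.841% and 0.604% against 0.403% and 0.534%, for proteasome subunits at 0.580% and 0.511% against 0.471% and 0.363%, for meiotic chromosome genes at 0.609% and 0.625% against 0.543% and 0.370%, for actin and cortex genes at 1.03% and 1.13% against 0.874% and 0.648%, and for membrane trafficking genes at 2.58% and 2.76% against 2.43% and 1.40%. The membrane trafficking ratio was 1.39, and 1.10 without GFP replicate 2. With reads on protein-coding genes as the denominator the aminoacyl-tRNA synthetases overlapped, and with the most read gene left out the meiotic chromosome genes did. Splicing factors were the only list of cell-wide functions with a smaller share, 0.580% and 0.534% against 0.792% and 0.648%, and their intervals met too, with nearest bounds of 0.612% and 0.528%. prp-8, the largest core protein of the spliceosome, went the other way, with 226 and 264 reads against 19 and 3.

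Other lists of genes that most cells use did not separate the groups. Cytosolic ribosomal protein genes took little of any library, 0.216% and 0.172% with MEG-3::GFP and 0.166% and 0.933% with GFP. In GFP replicate 2 the larger share came from members such as rplp-0, with 28 reads there and none in the other 3 libraries, and rpl-4, with 19. Translation factors took 0.862% and 1.05% against 1.23% and 0.449%. Histone genes took 0.400% and 0.389% against 0.113% and 0.392%. Their near-identical copies make the gene assignment of those reads uncertain, and 8 of 12 tested had higher CPM in both MEG-3::GFP libraries and 1 lower. DNA replication genes took 0.709% and 0.762% against 0.709% and 0.741%. Nuclear genes of the respiratory chain, nuclear pore genes, cyclins and mitotic kinases, tubulins and motors, and chromatin regulators overlapped as well.

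**Figure D3:**
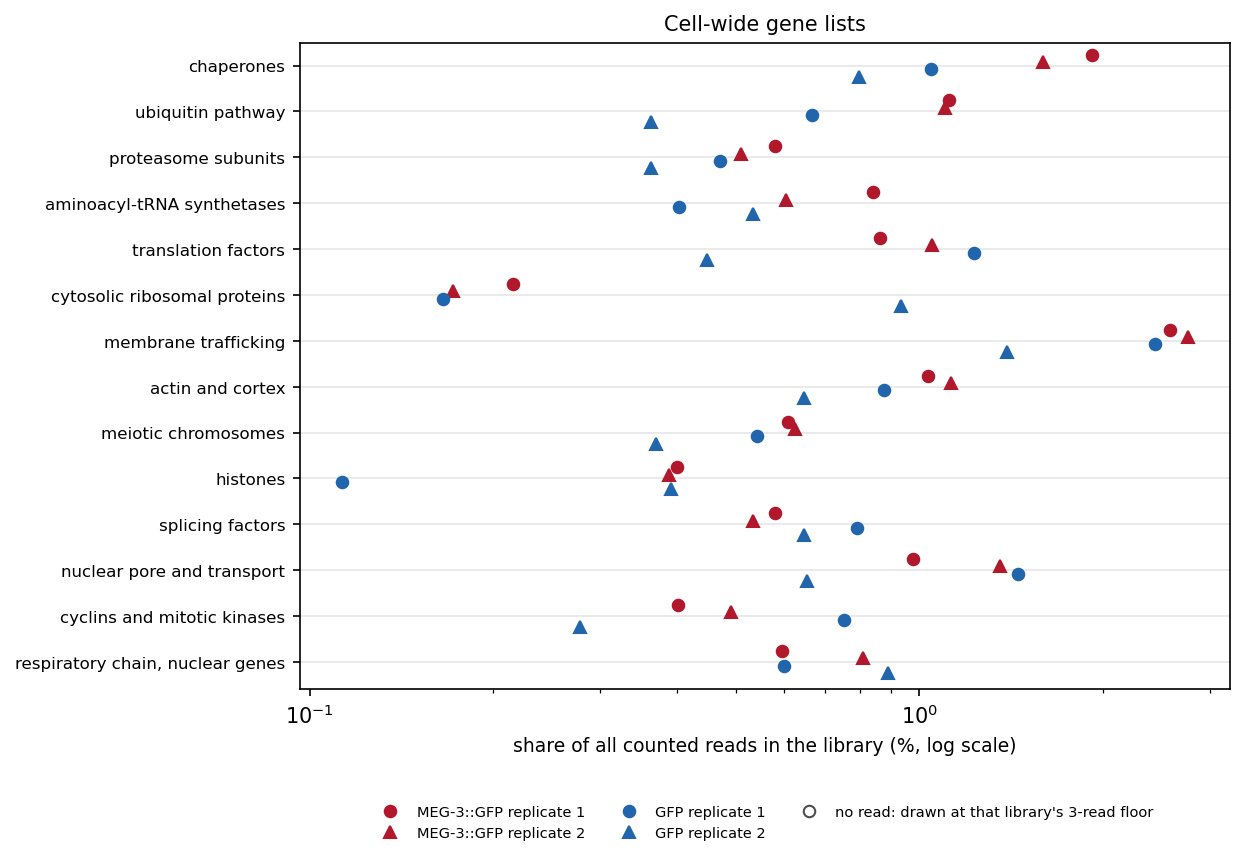
Share of all counted reads (%, log axis) on each list of genes used by most cells, with 1 point for each of the 4 libraries. Chaperones and the ubiquitin pathway lay to the right in both MEG-3::GFP libraries, and the splicing factors to the left.

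Reads outside nuclear protein-coding genes took a smaller share with MEG-3::GFP. Protein-coding genes received 97.7% and 98.4% of reads with MEG-3::GFP and 94.6% and 83.5% with GFP, with nearest bounds of 97.6% and 94.9%. The mean of 98.1% was 1.10 times that of 89.1%, and 1.04 times without GFP replicate 2. snoRNA genes, which guide the modification of ribosomal RNA in the nucleolus, took 0.424% and 0.147% against 1.70% and 5.71%. The GFP mean was 12.98 times the MEG-3::GFP mean, 5.97 times without GFP replicate 2, and 25.2 times without MEG-3::GFP replicate 1. Of 22 snoRNA genes tested, 9 had lower CPM in both MEG-3::GFP libraries and none higher, with a median log2 fold change of -6.58, or -5.11 at the bounds. ZK994.7 had 0 and 20 reads with MEG-3::GFP and 65 and 76 with GFP. C08D8.3 had 113 and 1 against 98 and 34, and Y74C9A.6 went the other way in replicate 1, with 397 and 47 reads against 2 and 25.

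tRNA genes took 10 and 19 reads with MEG-3::GFP and 29 and 84 with GFP, or 0.00443% and 0.00679% against 0.109% and 0.598%. The GFP mean was 63.1 times the MEG-3::GFP mean, 19.5 times without GFP replicate 2 and 107 times without GFP replicate 1. microRNA genes took 0.0452% and 0.00821% against 0.313% and 0.385%, and here the 2 GFP libraries were close. mir-41 and mir-42, of the mir-35 family that is abundant in early embryos, had 1 and 7 reads and 0 and 1 reads with MEG-3::GFP, and 46 and 26 and 11 and 13 reads with GFP. mir-2 had 91 reads in MEG-3::GFP replicate 1 and none in the other 3 libraries. The GFP mean was 13.1 times that of MEG-3::GFP, 11.7 times without GFP replicate 2, 42.5 times without MEG-3::GFP replicate 1 and 7.71 times without MEG-3::GFP replicate 2, and without mir-41 the log2 ratio was -2.75 in place of -3.71.

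Piwi-interacting (21U) RNA genes took 1 and 16 reads against 17 and 5, or 0.000443% and 0.00571% against 0.0641% and 0.0356%. With GFP their mean was 16.2 times that of MEG-3::GFP, 20.8 times without GFP replicate 2, 8.72 times without MEG-3::GFP replicate 1 and 112 times without MEG-3::GFP replicate 2. Other non-coding RNA genes, with lfor-1 among them, took 0.785% and 0.651% against 0.920% and 2.31%, with intervals that met. With GFP the mean was 2.25 times that of MEG-3::GFP, and 1.28 times without GFP replicate 2. Without lfor-1 their log2 ratio was -2.24 in place of -1.17.

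Spliced leader RNA genes, whose transcripts donate the leader added to most worm mRNAs, took 0.504% and 0.199% against 0.897% and 2.85%, a GFP mean 5.33 times that of MEG-3::GFP, 2.55 times without GFP replicate 2, 8.11 times without GFP replicate 1 and 9.43 times without MEG-3::GFP replicate 1. Transcripts of the mitochondrial genome took 0.159% and 0.212% against 0.822% and 1.98%. The GFP mean was 7.54 times the MEG-3::GFP mean, and 4.42 times without GFP replicate 2. Of the 10 tested, 5 had lower CPM in both MEG-3::GFP libraries and none higher. MTCE.7 had 93 and 97 reads against 79 and 112, MTCE.33 had 54 and 255 against 78 and 61, the cytochrome oxidase gene ctc-1 had 4 and 78 against 34 and 6, and nduo-4 had 8 and 55 against 7 and 15. Pseudogenes took 0.241% and 0.234% against 0.343% and 0.634%, and overlapped without their most read member, F07H5.5. Other snRNA genes overlapped, at 0.124% and 0.0193% against 0.121% and 1.62%.

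**Figure D4:**
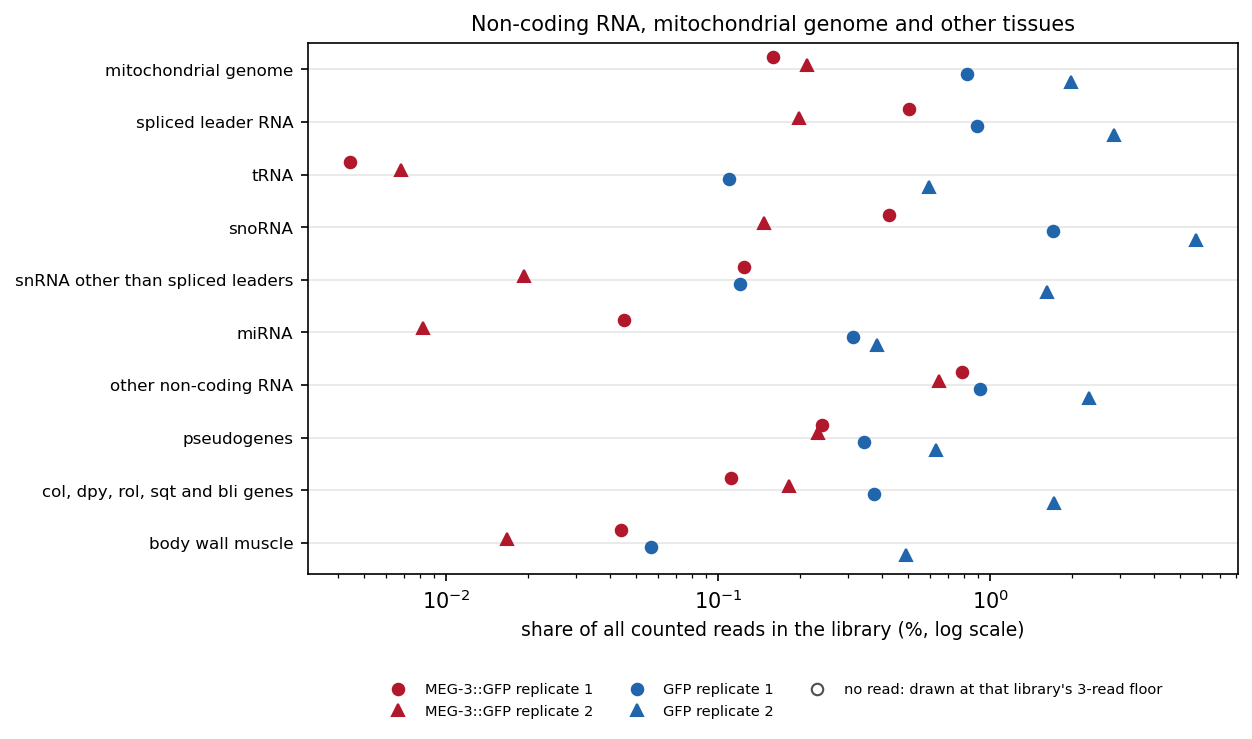
Share of all counted reads (%, log axis) on non-coding RNA classes, on the mitochondrial genome and on 2 gene lists of other tissues, with 1 point for each of the 4 libraries. The tRNA, snoRNA, miRNA and mitochondrial shares lay to the left in both MEG-3::GFP libraries, and GFP replicate 2 was the highest library in the rows drawn, which leave out the 21U RNA genes.

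Of the lists for later tissues, 2 took small shares that were larger with GFP in both libraries, and those for neurons and intestine overlapped. The col, dpy, rol, sqt and bli genes, of which many encode cuticle collagens, took 0.112% and 0.181% with MEG-3::GFP and 0.373% and 1.72% with GFP. The GFP mean was 7.15 times the MEG-3::GFP mean, 2.55 times without GFP replicate 2 and 11.8 times without GFP replicate 1. dpy-21, which acts in dosage compensation and is not a collagen, was the most read, with 7 and 152 reads against 1 and 40, and the collagen gene sqt-3 had 48 and 5 against 0 and 41. Body wall muscle genes took 0.0439% and 0.0168% against 0.0565% and 0.491%. Their intervals met. The ratio of GFP to MEG-3::GFP was 9.03, and it was 1.86 without GFP replicate 2, 16.2 without GFP replicate 1 and 16.3 without MEG-3::GFP replicate 1. The list overlapped without the gene of highest mean CPM, the myosin gene unc-54, with 1 and 7 reads against 9 and 27, and the actin gene act-4 had 98 and 7 against 0 and 18. The neuron list took 0.0984% and 0.0186% against 0.0792% and 0.185%, and the intestine list had a single gene with reads, act-5, with 0 and 1 reads against 1 and 0. The yolk protein and major sperm protein lists had no read in the 4 libraries. In these pooled embryos, fewer cells of a type and less RNA recovered per cell cannot be told apart.

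Gene names gave a finer division. A prefix, the letters before the hyphen in a gene name, was counted if at least 5 of its genes and 100 of the reads fell in the 4 libraries, and 175 prefixes met this. The share was larger in both MEG-3::GFP libraries for 46 of them and smaller for 26, with intervals apart in 18 and 9. The 103 others overlapped. Among the prefixes that did not overlap, the 5 largest ratios belonged to families with few reads in the controls. The fbxb genes, which encode F-box B proteins, had 417 and 288 reads with MEG-3::GFP and 1 and 4 with GFP, a log2 ratio of mean shares of 3.16, or an 8.92-fold difference that was 38.2-fold without GFP replicate 2 and 5.05-fold without GFP replicate 1. None of the 113 fbxb genes reached the count needed for the test, and in a family of so many similar copies the gene assignment of reads is uncertain. znf genes took 0.0523% and 0.102% of reads against 0.0113% and 0.00712% (log2 ratio 3.07), and their ratio ran from 5.68 to 11.1 as each library was left out, with 6.85 without GFP replicate 2. tat genes, phospholipid transporters, took 0.116% and 0.0564% against 0.0151% and 0.00712% (2.96), with ratios of 5.72 without GFP replicate 2, 12.1 without GFP replicate 1 and 5.08 without MEG-3::GFP replicate 1. trpp genes, subunits of the TRAPP trafficking complex, had 295 and 140 reads against 6 and 0 (3.00), and cyp genes, cytochromes P450, took 0.0532% and 0.0211% against 0.0113% and 0% (2.72). The intervals of the trpp and cyp genes met. Their ratios of 7.99 and 6.57 were 4.00 and 3.28 without GFP replicate 2, and 4.42 and 3.73 without MEG-3::GFP replicate 1.

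In 3 other prefixes, whose shares were also larger with MEG-3::GFP, the controls held more reads than for the prefixes above. All 8 cct genes, the subunits of the cytosolic chaperonin, had a read, and together they took 0.620% and 0.479% of reads against 0.102% and 0.135%, a ratio of 4.63 that stayed between 4.04 and 5.40 as each library was left out. All 20 vha genes of the vacuolar ATPase took 0.740% and 0.739% against 0.475% and 0.413%, a ratio of 1.67, or 1.56 without GFP replicate 2. The epg autophagy genes took 0.224% and 0.221% against 0.0829% and 0.0427%, a ratio of 3.54, or 2.68 without GFP replicate 2 and 5.20 without GFP replicate 1. These 3 prefixes were chosen after their values were seen.

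At the other end, the 160 col genes had 0 and 34 reads with MEG-3::GFP and 44 and 70 with GFP (log2 ratio -5.77), a GFP mean 54.7 times higher, 27.3 times without GFP replicate 2, 82.1 times without GFP replicate 1 and 27.4 times without MEG-3::GFP replicate 1. The log2 ratio of the mir genes was -3.71. The fkb genes, FK506-binding prolyl isomerases, took 0.0111% and 0.0236% against 0.162% and 0.178% (-3.30), a GFP mean 9.82 times that of MEG-3::GFP, 9.35 times without GFP replicate 2 and 15.3 times without MEG-3::GFP replicate 2. The mitochondrial nduo genes stood at -2.96 and the dpy genes at -2.56, and for both the intervals of the nearest libraries met. Without GFP replicate 2 the GFP mean was 1.67 times higher for nduo and 1.65 times for dpy.

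**Figure D5:**
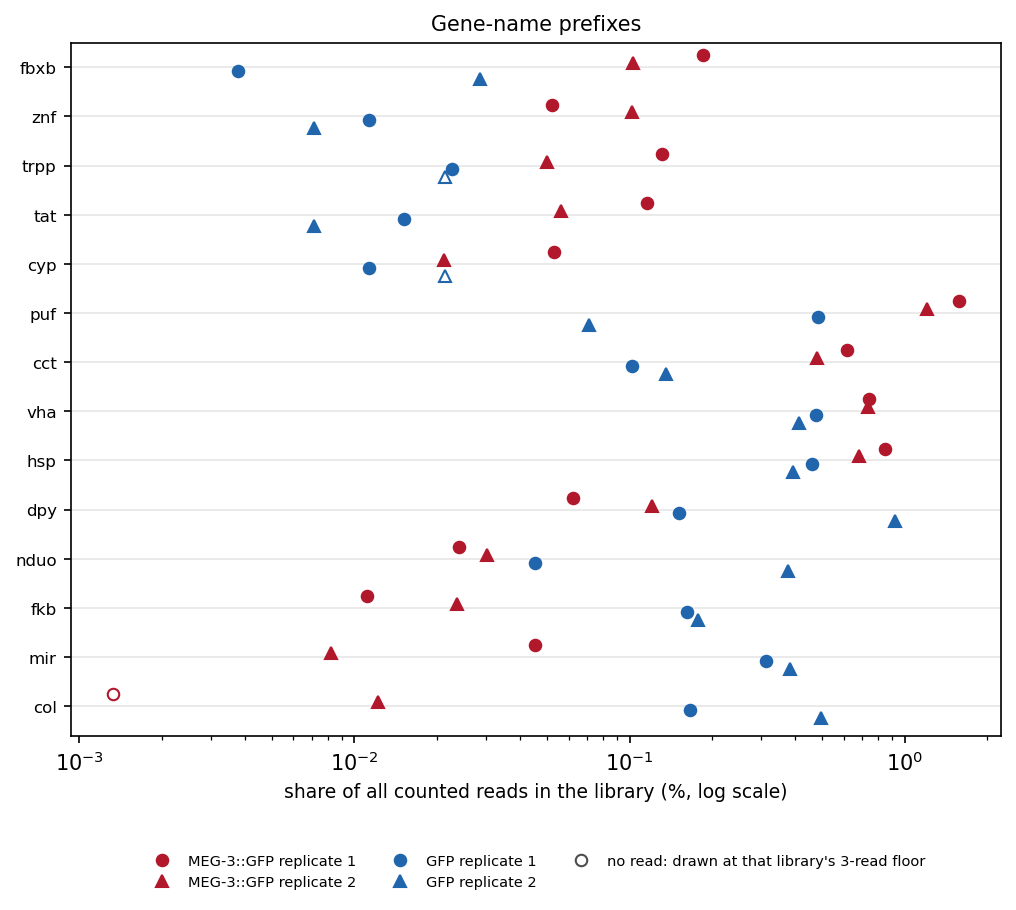
Share of all counted reads (%, log axis) on genes of each name prefix, with 1 point for each of the 4 libraries: the 5 largest ratios, puf, cct, vha and hsp, and the 5 smallest ratios. The 5 at each end were picked among prefixes whose shares did not overlap, so their separation follows from that choice. The measured shares of puf, cct, vha and hsp did not overlap either. Open symbols mark the 3-read floor of a library without a read, which for cyp reaches MEG-3::GFP replicate 2. The vha genes were nearly equal in both MEG-3::GFP libraries at 0.740% and 0.739%.

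The gene classes of the study were taken as lists of names. Genes whose mRNAs are enriched in P blastomeres, a class drawn from other libraries, took 26.4% and 27.8% of reads with MEG-3::GFP and 20.4% and 7.96% with GFP. The ratio was 1.91, or 1.33 without GFP replicate 2 and 3.41 without GFP replicate 1. Of the 1287 genes 1103 had a read and 429 were tested, 184 with higher CPM in both MEG-3::GFP libraries and 12 with lower, against 582 and 204 of the 2033 genes tested. Their median log2 fold change was 1.48 against 0.73 for all genes.

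Within that class, the 53 genes with low ribosome occupancy, a ratio of ribosome footprints to mRNA below 0.1 in the study's table, took 2.76% and 3.02% of reads against 1.01% and 0.235%. Their ratio was 4.62, or 2.85 without GFP replicate 2 and 12.3 without GFP replicate 1, and 16 of 25 tested had higher CPM in both MEG-3::GFP libraries and none lower, with a median log2 fold change of 2.33. Their most read members were cbd-1, ptc-1, egg-6 and ptr-2. Of these cbd-1 and egg-6 also lead the eggshell list, so that the results for both lists are not independent. The study's list of MEG-3-bound genes was drawn up on these MEG-3::GFP libraries, so that shares split by it follow from how it was made and are given as a description with no comparison. The 656 listed genes took 59.2% and 48.3% of reads with MEG-3::GFP and 35.9% and 19.5% with GFP, and the 491 P granule transcripts among them 52.4% and 43.3% against 30.7% and 15.6%. Of the P blastomere-enriched genes, the 187 on the list took 18.9% and 16.3% against 9.38% and 2.75%, and the 1100 off it 7.51% and 11.5% against 11.01% and 5.21%.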

How the data were processed

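The authors clipped adapters from the iCLIP reads with the FASTX-Toolkit and Python scripts, aligned them to the ws235 genome of C. elegans with HISAT2 2.1.0, removed PCR duplicates by their random barcodes and counted reads per gene with HTSeq. The HTSeq options, strand among them, are not given in the sources used here, so that reads on overlapping or antisense genes and on near-identical copies are uncertain. The deposited values are raw read counts per gene, of the authors' making, for 6 libraries. The table held 47085 rows for 46646 genes. The 438 identifiers found on more than 1 row had identical counts there and were kept once.

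Shares are percentages of all counted reads of a library, with 95% Wilson intervals. CPM are counts per 1000000 counted reads. Intervals cover counting error only, and PCR reads are not independent beyond the authors' barcode step. Library totals ran from 14040 to 280007 reads in the 4 libraries compared, and 46433 genes matched RefSeq (WBcel235), which gave gene types and positions. The quasi-likelihood test of edgeR 4.0.16, run in R 4.3.3, was used for genes (TMM scaling, default expression filter, all 6 libraries in 3 groups, Benjamini-Hochberg adjustment). SE is the log2 fold change over the square root of F. Alternatives were DESeq2 1.42.0, library sizes, other filters, the 4 libraries alone, each library left out, another denominator and lists without the gene of highest mean CPM. Tables and plots used Python 3.11.15, pandas 2.3.3, scipy 1.17.1 and matplotlib 3.10.9.

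Named genes were the tagged gene and the transgene's promoter gene, the 10 with the highest mean CPM in each group, the 10 with the largest log2 fold change each way among genes with an unadjusted p under 0.05 and no overlap, up to 4 members of highest mean CPM in each list, and the 5 prefixes at each end. The prefixes at each end were picked among those whose shares did not overlap between the groups. The lists, the rule and the comparison were chosen with earlier results of these data known. Nothing says that the 2 libraries of a group came from separate cultures, so p-values measure only the spread between them, which may be technical. The classes of the study were used as lists of names only, and 1287 of the 1292 P blastomere-enriched genes were in the table.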

Additional observations from a re-analysis of the deposited data

How the results depend on the processing

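With 2 libraries a group and GFP libraries of 14040 and 26531 reads, the counts of calls depended on the fit. Floors were 113 and 214 CPM with GFP against 13.3 and 10.7 CPM with MEG-3::GFP. Counts of rises and of falls are therefore not on equal terms. No gene passed adjustment with more reads in MEG-3::GFP under any fit run. For genes with fewer, the main count of 0 became 44 with DESeq2 and 2 with the 4 libraries alone (sup-6 and F30H5.4, adjusted p = 0.0342 in edgeR). The libraries are numbered within each protein, and nothing says that a number marks a shared culture or day. Same-numbered MEG-3::GFP and GFP libraries did not deviate together (correlation -0.04 across the 2033 genes tested, which are not independent replicates). With 2 libraries a group, this cannot decide whether a number marks a shared culture or day. A fit with the replicate block called 0 genes after adjustment, and 5 higher and 21 lower at an unadjusted p under 0.05.

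Genes with CPM higher in both MEG-3::GFP libraries numbered 582 of 2033. There were 1137 of 7370 without a filter, 1008 of 3859 with at least 20 reads, and 745 to 1217 as each library was left out. Genes lower in both numbered 204, 438 without a filter, and 291 to 692 as each library was left out. Lists with a larger share numbered 13, and 14 to 23 as each library was left out. Lists with a smaller share numbered 11, 3 with reads on protein-coding genes as the denominator, and 12 to 21 as each library was left out. Prefixes with a larger share numbered 46, and 64 to 98 as each library was left out, and those with a smaller share 26, and 38 to 62. The last 2 ranges and the ranges of CPM counts were added after seeing the data. Fewer libraries make overlap less likely by construction.

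The log2 fold change changed sign for 3 of the 39 genes refitted, which are those named for the tag, the promoter, their CPM or their fold change. Genes named only as members of a list were not refitted. pie-1 ran from -5.13 to 7.65 and mex-5 from -1.77 to 0.92 as each library was left out. unc-70 was 0.84 with the replicate block and ran from -4.86 to 7.06 as each library was left out. The cause was not tested. Of 324 recomputed values of list shares, 313 moved by less than the spread between replicates and 11 by more. That spread comes from the same libraries that are left out in turn, so that few values can move beyond it. A change of sign in an overlapping list, such as the CCCH genes, was counted as within it. These counts therefore cannot show that the list shares are stable.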
